A study of Rattus norvegicus with 70 samples.

Results

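The 38 genes described here belong to the unfolded protein response of the endoplasmic reticulum (ER) and to the amino acid response. They were taken by symbol from a table of 17048 rows, and each symbol occurred once. The table came from Sprague-Dawley rats, an outbred strain, exposed to bisphenols, which are plastic monomers with 2 phenol rings. Bisphenol A (BPA) carries an isopropylidene bridge between its rings, bisphenol F (BPF) a methylene bridge and bisphenol S (BPS) a sulfone bridge. Dams were dosed by mouth between day 6 of gestation and day 6 of lactation with vehicle, with BPA at 500 mg/kg/day, or with a mixture (Mix) of BPA at 160, BPF at 160 and BPS at 180 mg/kg/day. Their pups received the same substance at 250 mg/kg/day from postnatal day 7 until they were killed on postnatal day 63. Liver, kidney and thyroid of both sexes, testis and ovary were sequenced. Each organ and sex had 3 vehicle, 3 BPA and 3 Mix rats, except female kidney with 2 vehicle, 2 BPA and 3 Mix rats. By the sample codes in the labels, the organs of a sex came from the same rats, so results in different organs are not independent. In female kidney, vehicle and BPA replicates 1 and 2 carry the codes of replicates 2 and 3 in the other female organs. Litters were reduced to 3 pups of each sex per dam, and litter mates can be in 1 group. Litter, oestrous cycle stage and hour of collection are not in the labels. P-values measure only the spread between these rats.

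In the unfolded protein response, the ER membrane proteins ATF6, IRE1 and PERK sense misfolded proteins. ATF6 and the spliced form of XBP1, made by IRE1, raise chaperones, folding enzymes and parts of the ER-associated degradation machinery. PERK, and GCN2 when amino acids are short, phosphorylate eIF2alpha, which slows translation while the transcription factor ATF4 is made. ATF4 raises enzymes of serine, glycine and asparagine synthesis, aminoacyl-tRNA synthetases and stress genes such as Trib3 and Chac1. The liver and thyroid secrete large amounts of protein and depend on this system, and the ovary makes extracellular matrix and hormones.

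Promoter sequences were searched for some of the letters that ATF6 and XBP1 are known to bind. Other forms of these elements were not searched, so a gene without a match can still hold a site. RefSeq promoters on rat build GRCr8, 250 bases before to 50 after the start, were matched for 33 of the 38 genes, Aars, Nars, Sars and Wars through their newer symbols. Both strands were searched. The ER stress element (CCAAT, 9 bases of any kind, CCACG) occurred in 7 of the 33 (21.2%) and in 22 of 33469 promoters in all (0.0657%). Its CCACG part, which also lies inside every ER stress element and can overlap the next motif on the other strand, occurred in 24 (72.7%), against 31.6% of all promoters. The unfolded protein response element TGACGTGG occurred in Hyou1 (1 of 33, 3.03%; all promoters 0.595%). The C/EBP-ATF composite element TGATGNAA, which ATF4 is known to bind, occurred in Herpud1, Trib3, Chac1, Aars and Nars (5 of 33, 15.2%; all promoters 3.98%). A match is a description of letters, not of binding. The 8 ER stress elements follow, each 5′ to 3′ on the strand that holds it (the gene's own or the opposite one), with capitals marking the fixed letters. The position is that of the element's base farthest upstream of the gene's start, which on the opposite strand is the last base printed:
Hspa5, chr3:38452973-38452991, + strand gene, same strand, upstream end -43 from the start: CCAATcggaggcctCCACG
Xbp1, chr14:84604558-84604576, + strand gene, same strand, upstream end -65 from the start: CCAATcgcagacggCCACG
Dnajc3, chr15:102432534-102432552, + strand gene, same strand, upstream end -133 from the start: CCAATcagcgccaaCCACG
Hsp90b1, chr7:23012451-23012469, - strand gene, same strand, upstream end -176 from the start: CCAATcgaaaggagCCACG
Hsp90b1, chr7:23012347-23012365, - strand gene, opposite strand, upstream end -72 from the start: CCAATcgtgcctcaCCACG
Calr, chr19:40213135-40213153, + strand gene, opposite strand, upstream end -232 from the start: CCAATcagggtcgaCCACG
Canx, chr10:35158069-35158087, - strand gene, same strand, upstream end -230 from the start: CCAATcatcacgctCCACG
Creld2, chr7:121789239-121789257, + strand gene, opposite strand, upstream end -145 from the start: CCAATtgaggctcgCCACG

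The whole promoters of Sdf2l1, Creld2 and Herpud1 follow as examples of the genes that fell in ovary under Mix. Psph, Atf4 and Dnajb9 also fell there and are not printed. Of these, Psph held none of the motifs searched, and Atf4 and Dnajb9 held only a CCACG part. Of the 3 genes printed, only Sdf2l1 passed under BPA. The printed promoters are written in the direction of transcription. Only the motifs searched are marked, so unmarked letters can hold other sites. Capitals mark the ER stress element of Creld2 (on the opposite strand), CCACG parts on either strand and, in Herpud1, the composite element on the opposite strand:
Sdf2l1, chr11:97376628-97376927, + strand: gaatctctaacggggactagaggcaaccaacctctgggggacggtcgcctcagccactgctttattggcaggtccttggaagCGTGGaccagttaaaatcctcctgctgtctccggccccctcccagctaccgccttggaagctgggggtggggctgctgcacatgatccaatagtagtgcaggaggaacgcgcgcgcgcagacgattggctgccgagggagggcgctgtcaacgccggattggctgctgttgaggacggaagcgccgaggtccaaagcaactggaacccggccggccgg
Creld2, chr7:121789134-121789433, + strand: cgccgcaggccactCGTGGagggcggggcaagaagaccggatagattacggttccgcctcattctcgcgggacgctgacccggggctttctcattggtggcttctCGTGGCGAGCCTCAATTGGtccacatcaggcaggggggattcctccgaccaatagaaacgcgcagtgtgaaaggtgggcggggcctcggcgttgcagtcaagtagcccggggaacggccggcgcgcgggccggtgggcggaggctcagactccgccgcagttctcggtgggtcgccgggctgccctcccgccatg
Herpud1, chr19:10614658-10614957, - strand: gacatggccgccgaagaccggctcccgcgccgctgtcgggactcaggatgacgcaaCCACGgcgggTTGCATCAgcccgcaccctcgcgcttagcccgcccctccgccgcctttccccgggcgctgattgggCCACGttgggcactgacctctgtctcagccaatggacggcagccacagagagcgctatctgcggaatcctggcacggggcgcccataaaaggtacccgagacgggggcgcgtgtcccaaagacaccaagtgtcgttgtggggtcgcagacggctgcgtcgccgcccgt

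The values are counts of 3′ tags per gene, given here as CPM, counts brought to a common library size with TMM scaling within each organ and sex. Each transcript gives a tag near its 3′ end, and levels of different genes are not compared. Total counts ran from 4803807 to 10929957 in the 70 libraries. Ribosomal RNA rows took from 0.66% to 37.2% of a library, and the shares of an exposed group did not overlap those of vehicle in ovary, male kidney and female thyroid. The labelled organs carried their defining markers: in vehicle rats, 5 hepatocyte genes summed to at least 103000 CPM in liver, 5 thyroid follicular genes to at least 29400 in thyroid and 5 granulosa cell genes to a median of 1370 in ovary. Thyroid libraries also held RNA of other tissues, as did libraries of some other organs. The parathyroid hormone gene Pth was at 34390 to 44620 CPM in the 6 vehicle thyroids, and in 2 vehicle females it was above the summed follicular genes. The spermatid gene Tnp1, foreign to thyroid, was at 2752 and 1564 CPM in 2 vehicle female thyroids and at 10500 in 1 BPA male thyroid. In bulk tissue, fewer cells of a type and less RNA per cell cannot be told apart. A gene was called where edgeR's quasi-likelihood test gave a Benjamini-Hochberg adjusted p below 0.05 over all rows tested in that organ and sex. All 38 genes had enough counts for a test in male liver, ovary, female kidney and both thyroids. In the other tissues 36 did: Asns and Phgdh were too low in female liver, and Chac1 and Trib3 in male kidney and testis. BPA and Mix were each compared with the same vehicle rats. Counts of genes called by DESeq2 are given without the share of all rows that it called.

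**Figure D1:**
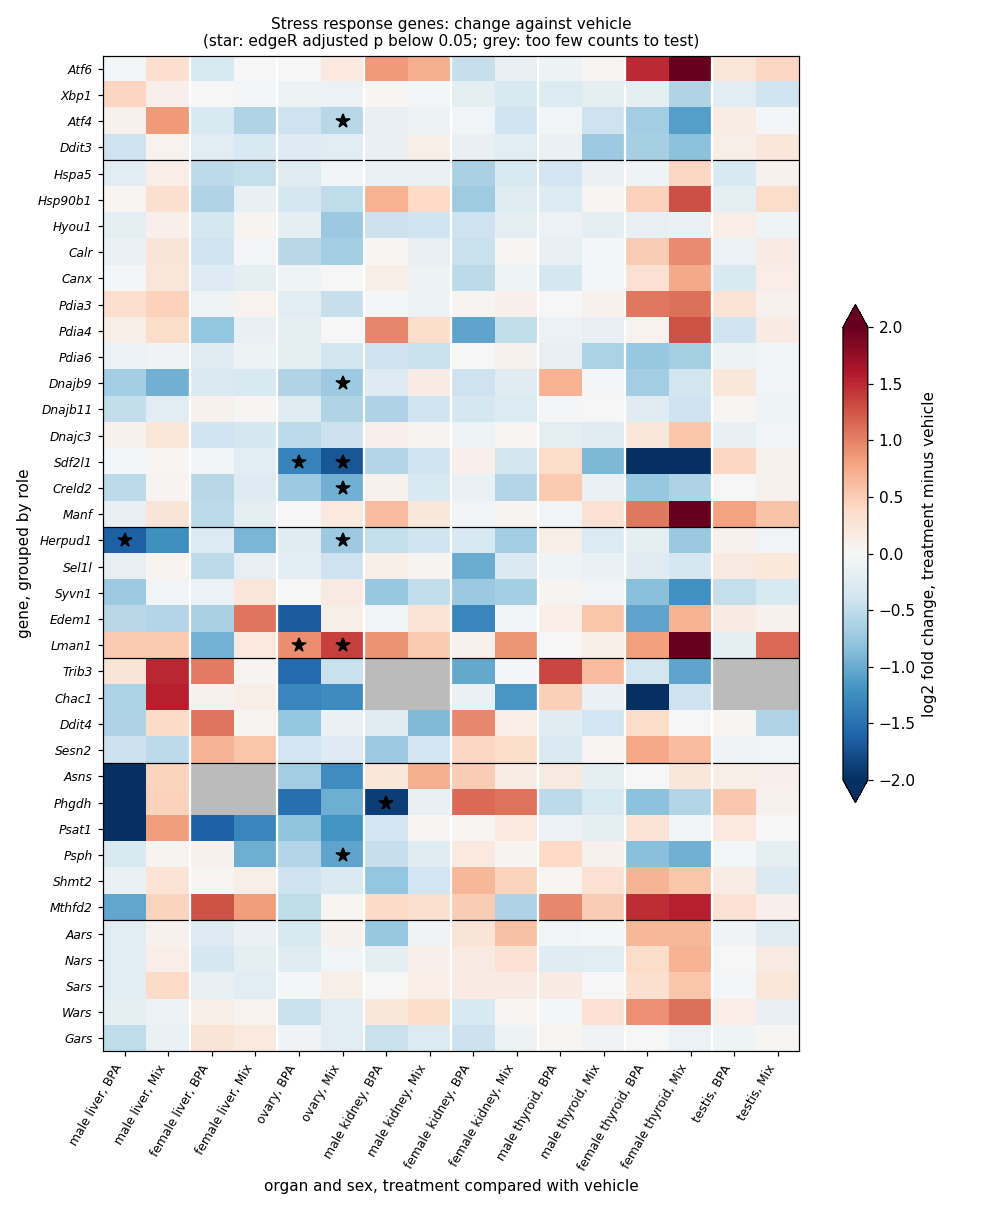
Log2 fold change against vehicle for the 38 genes (rows, grouped by role) in each organ, sex and treatment (columns), with stars for adjusted p below 0.05 in edgeR and grey where counts were too low to test. Of the 11 stars, 9 are in ovary, where Sdf2l1 is lower and Lman1 higher under both treatments.

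In ovary the chaperone gene Sdf2l1 fell and the cargo receptor gene Lman1 rose under both treatments. Under BPA, Lman1 rose and Sdf2l1 fell among the 38 genes, 2 calls against 6.79% of all 10871 rows called (2.91% rising and 3.88% falling). Under Mix, Lman1 rose and 6 genes fell: Sdf2l1, Psph, Creld2, Atf4, Herpud1 and Dnajb9, against 9.12% of all rows called (4.13% rising and 4.99% falling). The fold change was negative for 36 of 38 genes under BPA (median log2 -0.32, all rows 0.01) and for 29 of 38 under Mix (median -0.33, all rows 0.01). Exposed and vehicle libraries did not overlap for 11 genes that were lower under BPA and 14 under Mix, while 14.4% of all rows were lower without overlap in each comparison. Only Lman1 was higher without overlap in either, where 13.6% (BPA) and 14.7% (Mix) of all rows were.

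Sdf2l1 encodes an ER protein that works with the chaperone BiP. Its level was 143, 135 and 134 CPM in the vehicle ovaries, 77.5, 49.0 and 36.7 under BPA, and 40.6, 43.4 and 41.5 under Mix. Every exposed ovary was below every vehicle ovary, and the Mix ovaries were close together. Sdf2l1 fell under BPA (log2 -1.33, SE 0.22, adjusted p 0.00491) and under Mix (log2 -1.71, SE 0.22, adjusted p 0.00144). Creld2, which encodes a disulfide isomerase-like ER protein, was at 47.2, 48.8 and 60.1 CPM in vehicle, 43.5, 25.1 and 25.3 under BPA, and 26.7, 30.8 and 22.4 under Mix. The groups did not overlap, although the first BPA ovary lay just under the vehicle range. Creld2 fell under Mix (log2 -0.96, SE 0.23, adjusted p 0.0222), and its value under BPA did not pass (log2 -0.73, SE 0.23, adjusted p 0.0753). Dnajb9 encodes ERdj4, a BiP co-chaperone that also represses IRE1. Its levels were 47.8, 67.0 and 41.8 CPM in vehicle, 39.3, 34.8 and 29.2 under BPA, and 36.0, 25.5 and 32.6 under Mix. It fell under Mix (log2 -0.73, SE 0.21, adjusted p 0.0454), with no overlap in either comparison.

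The 14 chaperone and folding genes had a median log2 change of -0.25 under BPA, with all 14 negative, and of -0.48 under Mix, with 12 of 14 negative. Called were 1 gene under BPA and 3 under Mix, against 6.79% and 9.12% of all rows. Hspa5, which encodes BiP itself, did not pass: it was at 2470, 2060 and 1880 CPM in vehicle, 2260, 1860 and 1300 under BPA, and 2290, 1770 and 2070 under Mix. The BiP ranges overlapped in both comparisons. Calr, the gene of the lectin chaperone calreticulin, was lower without overlap in both, with adjusted p 0.128 under BPA (log2 -0.55) and 0.0574 under Mix (log2 -0.68). Hyou1, which encodes an ER nucleotide exchange factor, had a log2 value of -0.75 under Mix with adjusted p 0.0661.

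**Figure D2:**
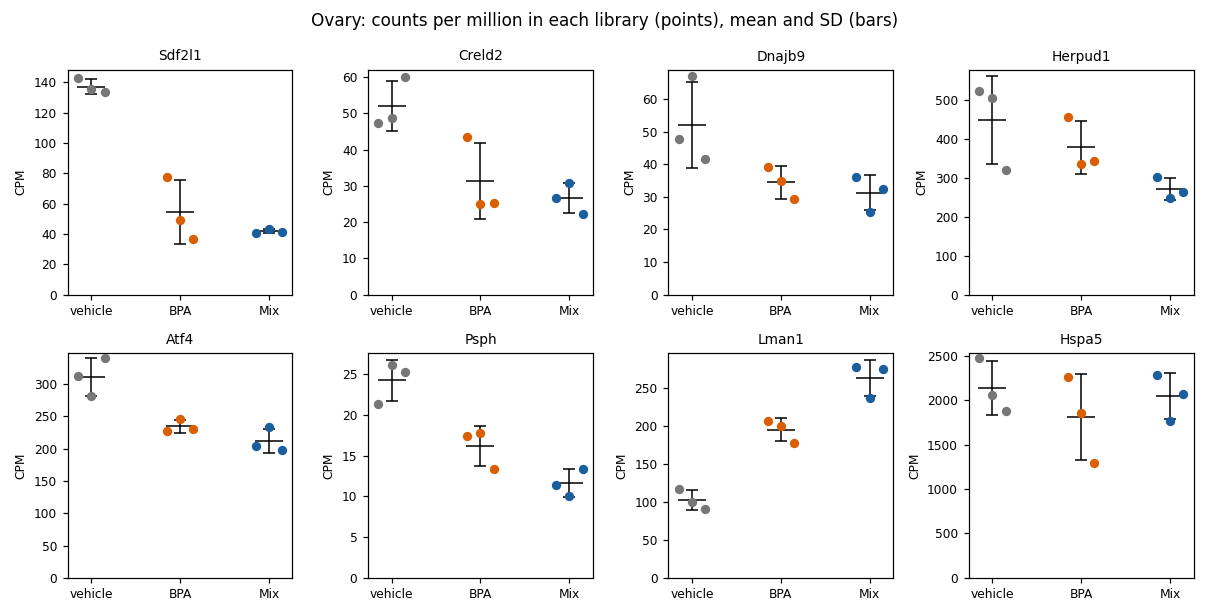
CPM of 8 genes in each ovary library (points) with mean and SD (bars) for vehicle, BPA and Mix. Sdf2l1 stands at 134 to 143 CPM in vehicle and at most 77.5 in exposed ovaries, Lman1 rises from a vehicle mean of 102 to 195 and 263, and the Hspa5 groups overlap.

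Lman1 encodes ERGIC-53, a receptor that carries glycoproteins from the ER to the Golgi. Vehicle ovaries had 117, 99.4 and 91.2 CPM, BPA ovaries 207, 200 and 178, and Mix ovaries 278, 237 and 276. The 3 groups did not overlap and were ordered vehicle, BPA, Mix. Lman1 rose under BPA (log2 0.93, SE 0.14, adjusted p 0.0036) and under Mix (log2 1.36, SE 0.14, adjusted p 0.000547). Both Lman1 and Sdf2l1 passed in both comparisons with each of the 9 ovary libraries left out in turn. With the share of ribosomal RNA in each library as a covariate, Lman1 under BPA did not pass (log2 0.74, adjusted p 0.108), while Sdf2l1 under BPA did (adjusted p 0.0232). Herpud1 encodes a membrane component of the degradation machinery. It was at 521, 505 and 318 CPM in vehicle, 456, 335 and 342 under BPA, and 302, 248 and 264 under Mix, where the lowest vehicle library was just above the highest Mix library. It fell under Mix (log2 -0.72, SE 0.20, adjusted p 0.039). The Herpud1 call held in 2 of the 9 fits with a library left out (without vehicle replicate 3 or BPA replicate 1), and so did that of Dnajb9, with the same libraries. Edem1 encodes a lectin that directs misfolded glycoproteins to degradation. It was at 8.70, 5.71 and 89.1 CPM under BPA and at 83.2, 152 and 91.1 in vehicle. Thus 1 BPA library was inside the vehicle range and the others were far below. Its adjusted p was 0.172. By the sample codes, Edem1 was low in the same rats in other organs. In female liver they were at 10.02 and 21.43 CPM, and the other BPA rat at 260.6. In female thyroid they were at 7.567 and 7.045 CPM, and the other BPA rat at 27.85. In female kidney 1 of these rats was at 6.501 CPM and the other BPA rat at 83.68. The part of the individual rat or litter in the Edem1 values was not tested.

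Among the sensors and transcription factors, Atf4 fell under Mix. Vehicle ovaries had 312, 281 and 341 CPM of Atf4, BPA ovaries 227, 246 and 230, and Mix ovaries 205, 234 and 198. All exposed libraries were below all vehicle libraries. The log2 change was -0.55 under Mix (SE 0.13, adjusted p 0.0238) and -0.41 under BPA (SE 0.13, adjusted p 0.0866). Xbp1, Atf6 and Ddit3, which encodes the transcription factor CHOP, did not pass in either comparison (adjusted p 0.344 to 0.985). Tag counts per gene do not show how much Xbp1 was spliced or the state of the ATF6 protein. The 4 ATF4 stress targets were negative in both comparisons with no call (median -1.04 under BPA and -0.35 under Mix).

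Psph encodes the phosphatase of the last step of serine synthesis. It was at 21.4, 26.1 and 25.3 CPM in vehicle, 17.4, 17.8 and 13.4 under BPA, and 11.4, 10.03 and 13.4 under Mix. The groups did not overlap with vehicle, and Psph fell under Mix (log2 -1.06, SE 0.22, adjusted p 0.0129). The first enzyme of that route, Phgdh, was at 67.2, 85.4 and 72.9 CPM in vehicle and 30.0, 32.2 and 17.0 under BPA, without overlap, and at 16.7, 78.2 and 19.2 under Mix, where 1 library lay within the vehicle range. It passed in neither (adjusted p 0.074 and 0.201). Of the 6 serine, glycine, one-carbon and asparagine genes, 6 were negative under BPA (median -0.64) and 5 under Mix (median -1.02). The 5 tRNA synthetase genes had medians of -0.24 and -0.06 with no call. With 1 library left out, the Mix calls of Psph, Creld2 and Atf4 held in 7, 5 and 6 of 9 fits. Psph was lost without vehicle replicate 2 or Mix replicate 1, Creld2 without vehicle replicate 2 or 3 or Mix replicate 1 or 3, and Atf4 without vehicle replicate 3 or Mix replicate 1 or 3.

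Direct comparison of Mix with BPA in ovary gave no call among the 38 genes, against 0.212% of all rows. At an unadjusted p below 0.05 in edgeR there were 8 (12.0% of all rows), and DESeq2 called 0. The 3 genes with the smallest p were Lman1, Mthfd2 and Ddit4. Lman1 differed by log2 0.43 (95% interval 0.13 to 0.73, adjusted p 0.219). Mthfd2, a mitochondrial folate enzyme, was at 314, 359 and 303 CPM under BPA and 368, 546 and 489 under Mix, with the vehicle libraries at 442, 535 and 410. The BPA libraries were the lowest 3 of the 9, and the difference was log2 0.52 (SE 0.17, adjusted p 0.222). Ddit4, which encodes an inhibitor of mTORC1, was at 289, 243 and 250 CPM in vehicle, 175, 142 and 141 under BPA, and 151, 352 and 210 under Mix, a spread that reached into both other groups (Mix minus BPA log2 0.64, SE 0.24, adjusted p 0.304). For Sdf2l1 the Mix minus BPA difference was log2 -0.38, with an interval from -0.85 to 0.08. The mixture held BPA at 160 mg/kg/day in dams, so the comparison sets 2 exposures of equal total dose side by side and does not separate BPF from BPS.

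Of the unfolded protein response genes outside the 38, 47 were tested in ovary. Under BPA 1 rose and 7 fell (median -0.22), and under Mix 1 rose and 7 fell (median -0.23). Of all rows, 2.91% rose and 3.88% fell under BPA, and 4.13% rose and 4.99% fell under Mix. Sec61g, a subunit of the ER translocation channel, fell under BPA (log2 -0.98, adjusted p 0.00978) and Mix (log2 -1.20, adjusted p 0.00334). Under BPA the prolyl isomerase gene Fkbp14 also fell (log2 -1.01, adjusted p 0.0128), and under Mix Ssr1 did (log2 -0.59, adjusted p 0.0178). Ssr4, which like Ssr1 encodes a translocon-associated subunit, fell in both (log2 -0.78 and -0.85, adjusted p 0.0149 and 0.00871), and the protein disulfide isomerase gene Pdia5 rose in both (log2 2.70 and 2.53, adjusted p 0.0231 and 0.0247). Of 42 other amino acid response genes, 1 rose and 1 fell under BPA, and 6 rose and 1 fell under Mix. The same shares of all rows apply to these counts. The amino acid transporter subunit gene Slc3a2 rose under Mix (log2 0.95, adjusted p 0.00752), as did Klhl24 (0.71, 0.00867) and the arginyl-tRNA synthetase gene Rars (0.63, 0.0141). Klhl24 rose under BPA too (0.71, 0.00943). The valyl-tRNA synthetase gene Vars fell in both (log2 -0.67 and -0.93, adjusted p 0.0498 and 0.0128).

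Some markers of ovarian cell types also differed between the groups, in directions that varied by cell type and treatment. The androgen-producing enzyme gene Cyp17a1 was at 5.13, 3.13 and 1.80 CPM in vehicle, 80.4, 229 and 94.6 under BPA, and 125.9, 124 and 265 under Mix. The luteinising hormone receptor gene Lhcgr rose by log2 3.62 in both comparisons. Of 5 granulosa cell markers, 4 rose under BPA and 1 under Mix, where 2.91% and 4.13% of all rows rose. Their summed level was at most 1460 CPM in vehicle (median 1370), 1550 to 2860 under BPA and 1130 to 1560 under Mix. Summed luteal and theca markers were 1910 to 2180, 1210 to 1730 and 2460 to 3220 CPM. Stroma markers summed to 2090 to 2560, 2500 to 2620 and 2030 to 2560 CPM. Oocyte markers summed to 13.4 to 25.9, 19.9 to 37.1 and 12.4 to 30.7 CPM, with Bmp15 listed at 0 in every ovary library. Markers of plasma cells, which secrete antibody and are rich in ER, summed to 7.92 to 18.1, 11.2 to 13.2 and 6.07 to 8.71 CPM. Sums of spermatid markers, a cell type foreign to ovary, reached 661 CPM in 1 vehicle library, and of hepatocyte markers 388 CPM. Ribosomal RNA rows took 20.7% to 29.4% of vehicle, 12.4% to 19.1% of BPA and 18.7% to 23.8% of Mix libraries. With that share as a covariate, Dnajb9 under Mix had adjusted p 0.0993. The part of cell composition in the results was not tested.

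In male liver Herpud1, a gene of ER-associated degradation, fell under BPA, and no other of the 38 genes passed in any comparison. Of the 38 genes, 1 fell and 0 rose under BPA, against 0.228% of all 9669 rows called. Under Mix none was called (0.321% of all rows), with 6 at an unadjusted p below 0.05 in edgeR (all rows 6.71%) and 3 called by DESeq2. Between Mix and BPA none was called (0.0103% of all rows), with 12 at an unadjusted p below 0.05 in edgeR, all higher under Mix (all rows 6.18%), and 2 called by DESeq2. The median log2 values were -0.23 for BPA, 0.18 for Mix and 0.36 for Mix minus BPA, with all rows between -0.01 and 0.00. Without overlap, 7 genes were lower and 1 higher under BPA (all rows 7.46% and 6.42%), and 10 were higher and 1 lower under Mix than under BPA (all rows 5.51% and 5.04%).

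Herpud1 was at 833, 671 and 317 CPM in vehicle males, 178, 183 and 226 under BPA, and 312, 186 and 284 under Mix. All exposed libraries were below all vehicle libraries, and vehicle replicate 3 was close to the Mix range. The change was log2 -1.64 under BPA (SE 0.30, adjusted p 0.0376) and -1.22 under Mix (SE 0.30, adjusted p 0.158). Ribosomal RNA took 2.72%, 2.50% and 23.4% of the 3 vehicle libraries, the third being the one with low Herpud1. Without it the values were -1.94 (adjusted p 0.00201) under BPA and -1.53 (0.00975) under Mix. The BPA call held otherwise only without Mix replicate 1 or 2 and was lost without any other of the 9 libraries. With the ribosomal share as a covariate it was -1.39 (adjusted p 0.0731). The part of RNA quality in it was not tested.

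Dnajb9 and Atf4 completed the 3 smallest p under Mix in males. Dnajb9 was at 78.5, 41.1 and 52.4 CPM in vehicle, 36.2, 33.4 and 37.9 under BPA, and 32.9, 24.7 and 30.9 under Mix, with every exposed library below vehicle (Mix log2 -0.96, SE 0.24, adjusted p 0.158). Atf4 was at 146, 151 and 82.8 CPM in vehicle, 119, 130 and 156 under BPA, and 245, 175 and 267 under Mix. All Mix libraries were above all others for Atf4 (log2 0.85 against vehicle, SE 0.24, adjusted p 0.274; 0.76 against BPA, adjusted p 0.569). The ATF4 target Trib3, a pseudokinase, was at 23.9, 10.2 and 4.54 CPM in vehicle, 21.4, 11.7 and 13.5 under BPA, and 38.2, 27.1 and 46.1 under Mix, again with Mix on top (log2 1.51 against vehicle, adjusted p 0.274). Chac1, a glutathione-degrading enzyme gene, was at 4.78, 6.07 and 6.05 CPM under Mix and at most 2.61 in the other males.

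Of the serine, glycine, one-carbon and asparagine genes, Psat1, Phgdh and Asns were near their detection limit in liver. Shmt2 was not, at 55.5 to 84.4 CPM in vehicle males. Psat1, the transaminase of serine synthesis, was at 7.50, 2.52 and 4.02 CPM in vehicle, 0.127, 0.854 and 0.870 under BPA, and 7.97, 3.83 and 13.1 under Mix. These are 1 to 7 raw counts in a BPA library and 29 to 130 in a Mix library, with no overlap. Mix minus BPA was log2 3.74 (SE 0.65, adjusted p 0.0739), past the threshold without vehicle replicate 1 (0.0493) or Mix replicate 2 (0.0316). Phgdh was at 1.27, 0.0786 and 5.58 CPM in vehicle, 0, 0.244 and 0.145 under BPA, and 3.99, 2.24 and 2.92 under Mix (Mix minus BPA adjusted p 0.383). BPA was lowest except for 1 vehicle library. Asns, the asparagine synthetase gene, was at 0.253, 0.366 and 0.725 CPM under BPA and 1.99, 1.34 and 2.72 in vehicle. In the Mix males Asns ran from 0.228 to 4.62, covering the other groups. None of these genes passed between Mix and BPA. The fitted log2 value of Mix minus BPA was above 0 for all 6 genes of this role (median 2.03), for 13 of 14 chaperone genes (0.27) and for 5 of 5 synthetase genes (0.36).

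**Figure D3:**
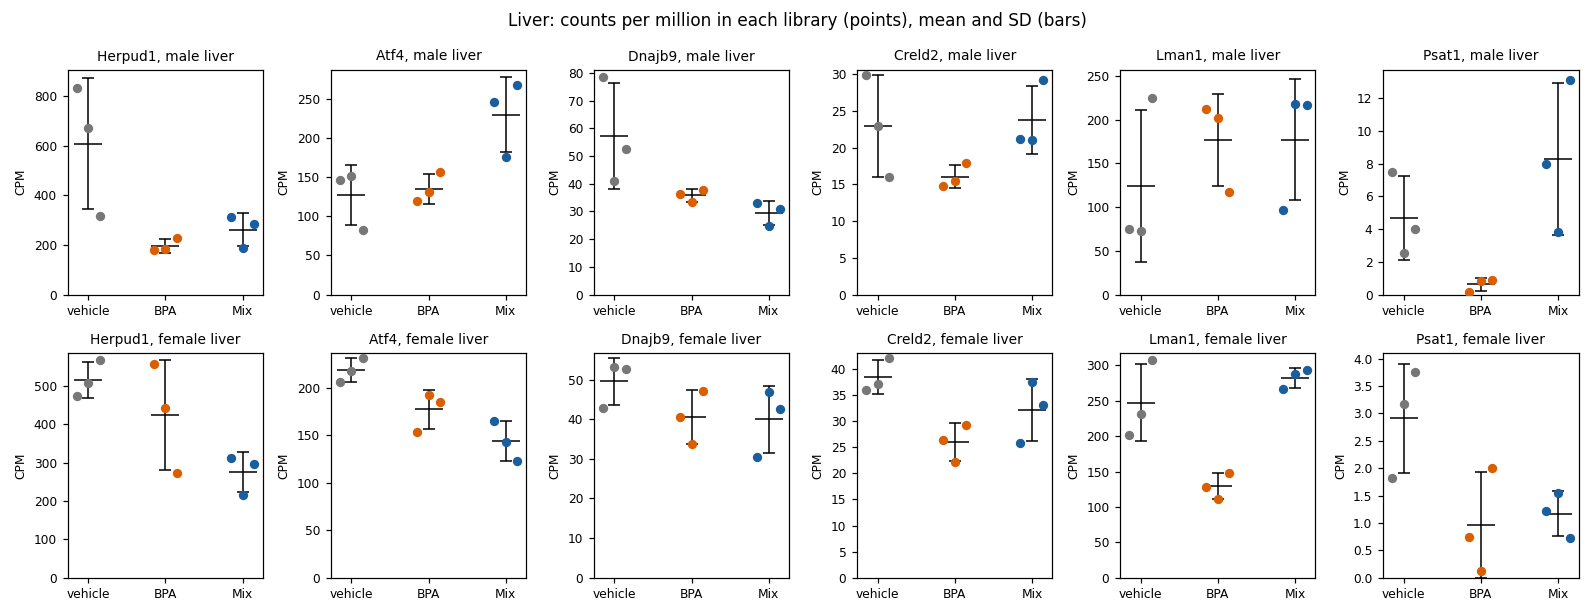
CPM of 6 genes in each liver library (points) with mean and SD (bars), males above and females below. Male Herpud1 is at 317 to 833 CPM in vehicle and at most 312 in exposed males, and Atf4 under Mix is above vehicle in males and below it in females.

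In female liver Lman1 was lowest under BPA, and no gene passed in any comparison. The counts of calls were 0 of 36 for BPA, Mix and Mix against BPA, where 0.419%, 0.0523% and 0% of all 9554 rows were called. At an unadjusted p below 0.05 edgeR gave 8, 2 and 3 genes (all rows 11.4%, 6.62% and 6.50%), and DESeq2 called 1 in each. Under BPA 10 genes were lower without overlap and 0 higher (all rows 8.06% and 7.65%), with a median of -0.26. Under Mix 8 were lower and 0 higher (all rows 6.92% and 7.65%), with a median of -0.12. Lman1 was at 201.9, 232 and 308 CPM in vehicle, 127.7, 111.3 and 148 under BPA, and 266, 287 and 293 under Mix. BPA libraries were below both other groups (log2 -0.94 against vehicle, SE 0.20, adjusted p 0.0632; Mix minus BPA 1.13, SE 0.20, adjusted p 0.0926). The Mix minus BPA difference of Lman1 passed without vehicle replicate 3.

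The other female genes with the smallest p were chaperone and degradation genes and Atf4. Pdia4, a protein disulfide isomerase, was at 177, 218 and 173 CPM in vehicle, 151, 103 and 80.0 under BPA, and 142, 185 and 184 under Mix, with BPA below vehicle throughout (adjusted p 0.196; Mix minus BPA 0.688). Creld2 was at 35.9, 37.1 and 42.0 CPM in vehicle and 26.4, 22.1 and 29.2 under BPA, also without overlap (log2 -0.56, adjusted p 0.297). Herpud1 was at 473, 509 and 567 CPM in vehicle and 312, 216 and 298 under Mix, all lower (log2 -0.91, SE 0.25, adjusted p 0.294). Its BPA libraries, at 559, 443 and 273, spread over both groups (Mix minus BPA adjusted p 0.688). Atf4 was at 206, 218 and 231 CPM in vehicle and 165, 143 and 123 under Mix, with no overlap (log2 -0.60, SE 0.18, adjusted p 0.444). Dnajc3, the gene of the eIF2alpha kinase inhibitor p58IPK, was at 350, 397 and 361 CPM in vehicle and 294, 290 and 286 under Mix (log2 -0.35, adjusted p 0.773). The Mix values for Dnajc3 lay close together under the vehicle range. By role, 13 of 14 chaperone genes (median -0.37) and 5 of 5 degradation and export genes (median -0.53) were negative under BPA, while the 4 ATF4 targets were positive (median 0.86). Summed hepatocyte markers were 114000 to 133000 CPM in vehicle females, 75900 to 79600 under BPA and 62700 to 108000 under Mix. Their part in these values was not tested.

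With both sexes in a joint fit and sex as a term, none of the 38 genes was called in liver for BPA, Mix or Mix against BPA (all rows 0.289%, 0.0896% and 0.0299%). At an unadjusted p below 0.05 edgeR gave 9, 3 and 6 genes (all rows 9.17%, 6.86% and 5.75%), and DESeq2 called 2, 1 and 0. For BPA the leading genes were Herpud1 (log2 -0.93, SE 0.26, adjusted p 0.204), Psat1 (-2.19, 0.62, 0.215) and Creld2 (-0.54, 0.16, 0.252). For Mix they were Herpud1 (log2 -1.09, SE 0.25, adjusted p 0.193), Dnajb9 (-0.64, 0.17, 0.316) and Trib3 (0.91, 0.43, 0.724). For Mix minus BPA they were Psat1 (2.24, adjusted p 0.524), Creld2 (0.44, 0.79) and Calr (0.39, 0.824). Outside the 38, Eif2ak3, the gene of the PERK kinase, fell under BPA in this fit (log2 -0.93, SE 0.16, adjusted p 0.0119). It was at 14.6, 12.5 and 14.1 CPM in vehicle males and 10.1, 6.83 and 6.82 in BPA males, and at 17.3, 17.2 and 19.5 in vehicle females and 9.17, 8.69 and 7.58 in BPA females. BPA was lower without overlap in both sexes.

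The difference between the sexes in the liver response was tested as female effect minus male effect. None of the 38 genes passed, against 0.209%, 0.189% and 0% of 10044 rows called for BPA, Mix and Mix against BPA. At an unadjusted p below 0.05 edgeR gave 9, 5 and 10 genes (all rows 9.62%, 6.33% and 6.93%), and DESeq2 called 0, 1 and 0. The call by DESeq2 was Atf4, which was higher under Mix in males and lower in females: log2 -1.46 (SE 0.31), adjusted p 0.0592 in edgeR and 0.00199 in DESeq2. Without male Mix replicate 2 the edgeR value was 0.0373. For Mix, Dnajc3 (-0.58, adjusted p 0.656) and the seryl-tRNA synthetase gene Sars (-0.61, 0.697) came next. For BPA, Herpud1 (1.36, adjusted p 0.285), Lman1 (-1.45, 0.366) and Phgdh (5.39, 0.408) led, and Herpud1 and Lman1 passed without male vehicle replicate 3, the library with 23.4% ribosomal RNA. For Mix minus BPA the leading values were Atf4 -1.07 (adjusted p 0.468), Psat1 -3.39 (0.472) and Trib3 -2.25 (0.507).

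In male kidney Phgdh, the entry enzyme of serine synthesis, was lower under BPA than under vehicle or Mix. It was at 123, 83.8 and 115 CPM in vehicle, 21, 38.7 and 27.5 under BPA, and 58.5, 136 and 95.9 under Mix. The BPA libraries lay below all others, and Mix spanned the vehicle range. The change was log2 -1.88 against vehicle (SE 0.31, adjusted p 0.0482), and Mix was higher than BPA by 1.73 (SE 0.31, adjusted p 0.0156). These were 1 call of 36 genes in each, against 0.136% and 2.93% of all 11000 rows. Mix against vehicle gave none (0.0273% of all rows), with 3 at an unadjusted p below 0.05 in edgeR (all rows 9.20%) and 1 called by DESeq2. The BPA call held without Mix replicate 1 or 2 and was lost without any other of the 9 libraries. The Mix minus BPA call was lost without BPA replicate 2 or 3. Ribosomal RNA rows took 1.70% to 3.50% of vehicle libraries, 16.4% to 37.2% of BPA and 1.42% to 20.2% of Mix libraries. With that share as a covariate, Phgdh was -0.71 against vehicle (adjusted p 0.856) and Mix minus BPA 0.78 (adjusted p 0.383). Proximal tubule markers summed to 4900 to 6070 CPM in vehicle and 2740 to 3660 under BPA, and stroma markers to 261 to 363 and 875 to 1000. Their part in the Phgdh result was not tested.

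**Figure D4:**
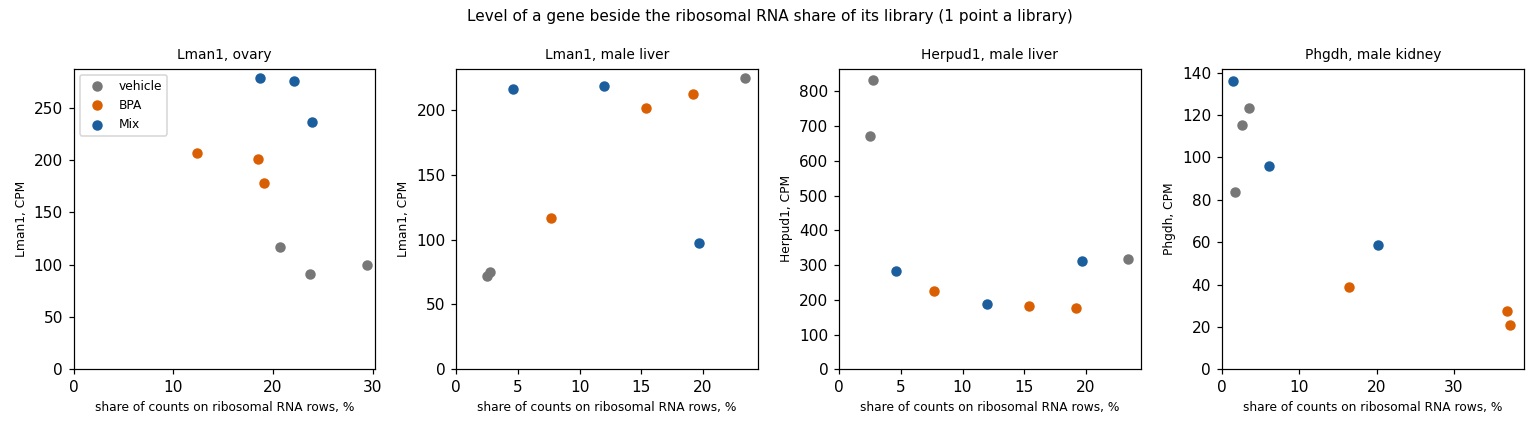
CPM of a gene (vertical axis) beside the percentage of the library's counts on ribosomal RNA rows (horizontal axis), 1 point a library, for Lman1 in ovary and male liver, Herpud1 in male liver and Phgdh in male kidney. The Phgdh libraries with the lowest levels, at 21 and 27.5 CPM, have the highest shares, at 37.2% and 36.8%, and the male vehicle liver with 317 CPM of Herpud1 has 23.4%.

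In female kidney none of the 38 genes was called in any comparison, and 0% of all 10681 rows were called in each. At an unadjusted p below 0.05 edgeR gave 9 genes for BPA, 5 for Mix and 6 for Mix against BPA (all rows 16.4%, 10.4% and 7.29%), and DESeq2 called 1, 1 and 0. Phgdh was at 75.1 and 14.3 CPM in vehicle, 103 and 91.5 under BPA, and 81.7, 124 and 76.5 under Mix, so the vehicle rats differed from each other more than the exposed rats did. The vehicle rats' ribosomal shares were 37.1% and 19.2%. A test of female effect minus male effect in kidney, chosen after the values were seen, called Phgdh, Pdia4 and Shmt2 for BPA, against 4.73% of all 11651 rows. With the ribosomal share as a covariate none of the 38 passed, with differences of log2 2.76 for Phgdh (3.02 without the covariate), -2.38 for Pdia4 (-2.02) and 1.27 for Shmt2 (1.43).

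In thyroid none of the 38 genes passed in either sex, where 0% of all rows were called in each comparison, except for 0.00899% under Mix in females. In females edgeR gave 7, 12 and 4 genes at an unadjusted p below 0.05 for BPA, Mix and Mix against BPA (all rows 13.3%, 23% and 5.84%), and DESeq2 called 1, 8 and 0. In males edgeR gave 2, 3 and 3 (all rows 8.23%, 4.96% and 13.8%) and DESeq2 called 0, 1 and 1. Sdf2l1 in female thyroid was at 776, 749 and 1070 CPM in vehicle, 427, 106 and 120 under BPA, and 257, 69.5 and 314 under Mix. Every exposed female was below every vehicle female (log2 -1.99, adjusted p 0.333; -2.02, adjusted p 0.0998). Without vehicle replicate 1, 13 genes were called under Mix and 4 under BPA. The share of all rows called in those fits is not given here, so these counts are not a result about the 38 genes. Ribosomal RNA took 0.66% to 3.26% of vehicle libraries, 1.93% to 7.40% of BPA and 11.7% to 23.7% of Mix. The levels of cell type markers also varied between these libraries. The 5 follicular genes summed to 29400 to 51000 CPM in vehicle, 48700 to 56200 under BPA and 53600 to 74000 under Mix. The 4 C cell and parathyroid genes summed to 46900 to 60500, 38400 to 50400 and 21400 to 55100 CPM. Of genes foreign to the gland, 5 hepatocyte genes reached 3620 CPM in a vehicle female and at most 118 in exposed females, and 5 spermatid genes 3650 and at most 369. The muscle gene Myh4 reached 695 CPM in a vehicle female and 2742 in a Mix female. The fat gene Fabp4 was at 463, 1631 and 4733 CPM in vehicle females and at 216 to 970 in exposed females. The part of these cells and of the ribosomal share in the Sdf2l1 values was not tested. Sdf2l1 in male thyroid was at 444, 368 and 268 CPM in vehicle, 404, 368 and 614 under BPA, and 266, 119 and 192 under Mix, where Mix was lower without overlap and BPA was not.

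In testis Lman1 was higher under Mix than under BPA. It was at 15.2, 13.3 and 15 CPM in vehicle, 12.6, 11.4 and 14.4 under BPA, and 22.3, 39.0 and 33.6 under Mix. Mix lay above both other groups, and vehicle and BPA overlapped. Mix minus BPA was log2 1.31 (SE 0.20, adjusted p 0.0239), the only call of 36 genes, against 0.775% of all 11098 rows. It was lost without vehicle replicate 3, BPA replicate 2 or 3, or Mix replicate 2 or 3. BPA and Mix against vehicle gave no call (0% of all rows), with 6 and 3 genes at an unadjusted p below 0.05 in edgeR (all rows 12.0% and 5.33%) and 0 and 1 called by DESeq2.

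Across organs, vehicle levels of the 38 genes differed by gene. These values were scaled within organ and sex and are set side by side without a test, and the part of the parathyroid RNA in the thyroid values was not tested. Thyroid had the highest median for 16 genes, liver for 9, ovary for 7, kidney for 4 and testis for 2. Such orders were not counted over all rows, so the counts do not show whether the 38 genes differ from other genes. Without overlap with any other organ, thyroid was highest for 7: Sdf2l1, Psat1, Xbp1, Pdia6, Creld2, Syvn1 and Gars. Gars was separated narrowly, at 122 CPM or more in thyroid and at most 119 in ovary. Ribosomal RNA rows are part of the scaled counts. They took 20.7% to 29.4% of vehicle ovary libraries and 0.66% to 3.87% of vehicle thyroid libraries. The part of this share in the organ orders was not tested. Sdf2l1 ran from 268 to 1070 CPM in thyroid, 212 to 246 in testis, 134 to 143 in ovary, 36.7 to 77.7 in liver and 23.9 to 46.7 in kidney. Of these neighbours, liver and kidney overlapped. Xbp1 was at 291 to 346 CPM in thyroid and 11.7 to 15.8 in testis, with ovary (117 to 147) inside the liver range (92.8 to 192) and above the kidney range (59.0 to 102).

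The amino acid genes had other orders. Mthfd2 was at 410 to 535 CPM in ovary and at most 55.4 in any other organ, and Ddit4 at 243 to 289 in ovary and at most 75.8 elsewhere. Psat1 was at 675 to 1140 CPM in thyroid, 275 to 471 in kidney and 1.81 to 7.50 in liver. Asns was highest in testis (87.1 to 112.1 CPM) and lowest in liver (0 to 2.72), and Dnajb9 stood at 599 to 765 CPM in testis, above all other organs (at most 135). Testis was lowest for 20 genes, 12 of them without overlap, and liver for 11, 5 without overlap, again with no count over all rows. Those 5 were Asns, Phgdh, Psat1, Psph and Ddit4. Lman1, the gene that rose in ovary, was at 91.2 to 117 CPM there, at 72.2 to 308 in liver and at 13.3 to 15.2 in testis.

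**Figure D5:**
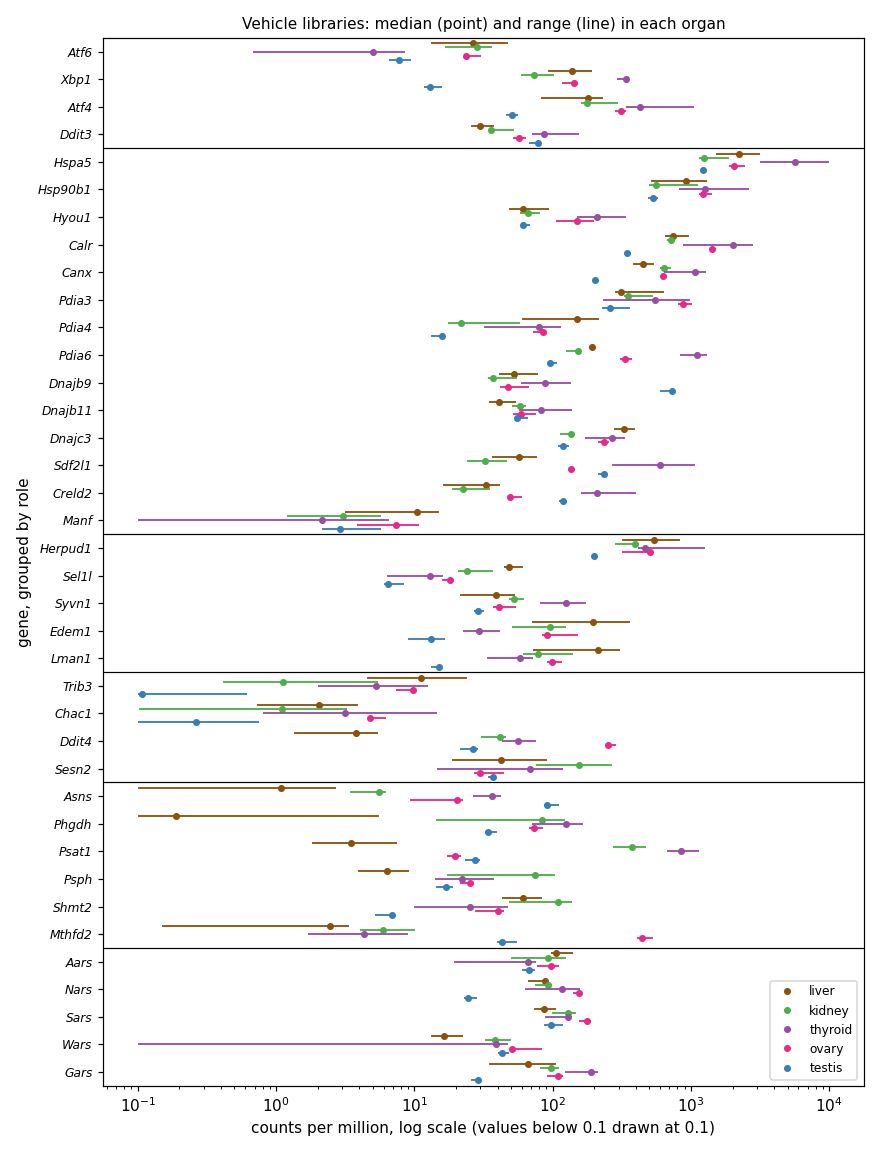
Median (point) and range (line) of CPM on a log axis for the 38 genes in vehicle libraries of each organ, with values below 0.1 drawn at 0.1. Sdf2l1 and Psat1 are highest in thyroid, Mthfd2 and Ddit4 in ovary and Dnajb9 and Asns in testis.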

How the data were processed

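Per the labels' protocols, TRIzol RNA went into QuantSeq 3′ libraries. The submitters' processing notes name rat build rn6, FastQC, Bowtie2, bedtools and edgeR; use of strand and of reads with several alignments is not given in the sources used here. The authors deposited counts per gene, whole numbers in 17048 rows for 70 libraries, per the file headers.

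The 38 genes and the other lists were chosen with earlier results of these data known. In R 4.3.3 with edgeR 4.0.16 (limma 3.58.1), each organ and sex was fitted separately: filterByExpr, TMM, quasi-likelihood test of 3 treatment groups, Benjamini-Hochberg adjustment over all rows tested. Liver was also fitted jointly. The SE is the size of the log2 fold change divided by the square root of F. The code was tested on simulated data. Values in every library are given for called genes and, in liver and ovary without a call, for the 3 smallest p; from the other lists, up to 3 called genes per comparison by smallest p. Pdia4, Phgdh and Shmt2 in both kidneys, Sdf2l1 in thyroid, and Hspa5, Calr, Hyou1, Edem1, Phgdh, Trib3, Chac1, Asns, Pdia5 and Rars were added after their values were seen. DESeq2 1.42.0, no filter, DESeq2 size factors, the ribosomal share as covariate, a replicate block and leaving out libraries were alternatives. No pair of libraries was a near duplicate.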

Additional observations from a re-analysis of the deposited data

Results flagged for a closer look

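In kidney a test of female effect minus male effect, chosen after the values were seen, called 3 of the 38 genes for BPA. This test called 4.73% of all 11651 rows, so the count of 3 does not set the 38 genes apart from other genes. Pdia4, a disulfide isomerase, was at 18.1, 17.5 and 21.9 CPM in vehicle males and 41.9, 48.8 and 22 in BPA males, and at 58.3 and 57.6 in vehicle females and 27.9 and 28.0 in BPA females. The direction was opposite in the sexes, and the difference was log2 -2.02 (SE 0.38, edgeR adjusted p 0.0156). Phgdh was lower in BPA males and higher in BPA females than in vehicle, by a difference of log2 3.02 (SE 0.69, edgeR adjusted p 0.0262). It was 4.69 without female vehicle replicate 1 (adjusted p 0.000787) and 2.27 without female vehicle replicate 2 (0.0678), the rats with 75.1 and 14.3 CPM. Of the proximal tubule genes, Slc5a2 was at 188 and 27.3 CPM in these 2 rats and at 216 and 235 in BPA females, and Slc34a1 at 1320 and 483 and at 1410 and 1356. Their part in the difference was not tested. Shmt2, the mitochondrial serine hydroxymethyltransferase, was at 137, 109 and 126.9 CPM in vehicle males and 66.9, 68.5 and 83.5 in BPA males, and at 70 and 48.3 in vehicle females and 88.9 and 97.5 in BPA females. Its difference was log2 1.43 (SE 0.39, edgeR adjusted p 0.044). With each of the 16 kidney libraries left out in turn, Pdia4 passed in 13 fits, Phgdh in 10 and Shmt2 in 6, and none of the 38 genes passed without male vehicle replicate 1 or female BPA replicate 1. Ribosomal RNA rows took 1.70% to 3.50% of male vehicle and 16.4% to 37.2% of male BPA libraries, and 37.1% and 19.2% of female vehicle libraries. With that share as a covariate 0 of the 38 genes and 1 of all rows were called. Pdia4 was -2.38 (edgeR adjusted p 0.129), Phgdh 2.76 (0.295) and Shmt2 1.27 (0.353).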

How the results depend on the processing

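Values are numbers of the 38 genes called, in the order BPA, Mix, Mix against BPA where 3 are given. No result changed direction. The share of all rows called under each setting is not given, so these counts show only how calls depend on the processing. That share can move widely: the kidney sex test for BPA called 35 rows without male vehicle replicate 1 and 1259 without male Mix replicate 1. Without a filter they were 3, 3 and 3 in male liver, 1, 1 and 2 in female liver, 4 in ovary under BPA, 1 in female kidney under BPA, 1 (Mix) and 2 (Mix against BPA) in testis, 2 (BPA) and 1 (Mix) in liver of both sexes, and 2, 1 and 1 for the sex difference in liver. With DESeq2 they were 2, 3 and 2 in male liver, 1, 1 and 1 in female liver, 8 (BPA) and 12 (Mix) in ovary, 5, 1 and 2 in male kidney, 1 (BPA) and 1 (Mix) in female kidney, 1 (Mix) and 1 (Mix against BPA) in male thyroid, 1 (BPA) and 8 (Mix) in female thyroid, 1 (Mix) and 4 (Mix against BPA) in testis, 2 (BPA) and 1 (Mix) in liver of both sexes, and 1 (Mix) for the sex difference. DESeq2 size factors in edgeR moved none of these counts by over 1.5 times. With the ribosomal share as a covariate, added after seeing the data in male liver, they were 0 in male liver (BPA), 1 (BPA) and 11 (Mix) in ovary, and 0 in male kidney (BPA and Mix against BPA).

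Deviations of same-numbered rats correlated at -0.39 to 0.23, and those of other-numbered rats at -0.31 to 0.38. The samples were therefore not treated as pairs. With so few rats, this check cannot decide whether same-numbered rats share a batch or litter. With a replicate block the counts were 0 in male liver (BPA), 6 (BPA) and 11 (Mix) in ovary and 0 in testis (Mix against BPA).

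Leaving out each library in turn gave 0 to 1, 0 to 1 and 0 to 1 in male liver, 0 to 1, 0 to 0 and 0 to 1 in female liver, 2 to 6, 2 to 9 and 0 to 1 in ovary, 0 to 7, 0 to 0 and 0 to 2 in male kidney, 0 to 5, 0 to 3 and 0 to 1 in female kidney, 0 to 4, 0 to 13 and 0 to 0 in female thyroid, 0 to 2, 0 to 0 and 0 to 6 in testis, 0 to 1, 0 to 0 and 0 to 0 in liver of both sexes, and 0 to 2, 0 to 1 and 0 to 1 for the sex difference; male thyroid gave 0 throughout. The highest counts came without BPA replicate 1 in ovary (6 and 9) and testis (6), Mix replicate 1 in male kidney (7), and vehicle replicate 1 in female kidney (5) and female thyroid (13); the ovary Mix count was 2 without Mix replicate 1. Where 1 female kidney rat was left in an arm, it was assumed to vary like the other groups. The causes were not tested. With 3 rats a group, a difference that missed the threshold does not show equal levels, and genes with a few counts per library, such as Psat1 and Phgdh in liver, have wide errors.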
